A study of Equus caballus with 19 samples.

Results

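The genes described here are 10 enzymes that use arginine or tryptophan, or that supply a cofactor for doing so: the nitric oxide synthases NOS2 and NOS3, GTP cyclohydrolase GCH1, the arginase ARG2, ornithine decarboxylase ODC1, argininosuccinate synthase ASS1, argininosuccinate lyase ASL, and the kynurenine pathway enzymes IDO1, TDO2 and KYNU. They were chosen by gene name, with earlier results of these data known, and all 10 were among the 29196 gene names of each of the 2 tables of normalised read counts. Nitric oxide synthases make nitric oxide and citrulline from arginine and need tetrahydrobiopterin, whose synthesis starts with GCH1. Arginase competes for the same arginine and yields ornithine, from which ODC1 starts polyamine synthesis, while ASS1 and ASL turn citrulline back into arginine. IDO1 and TDO2 open the tryptophan ring at the start of the kynurenine pathway, and KYNU acts further along it. NOS2 is known as the cytokine-inducible synthase and NOS3 as the endothelial one.

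The data were RNA sequencing of wild-type adult horse tenocytes, the fibroblast-like cells of the superficial digital flexor tendon, grown for 14 days in three-dimensional gels of bovine type I collagen. In the first batch, 5 tenocyte lines (numbered 1 to 5 here) were each cultured without cytokine (control) or with 1 nM IL-1β, giving 10 libraries. In the second batch, 3 further lines (6 to 8) were cultured as control, with 1 nM IL-1β, or with 1 nM IL-1β + 100 ng/ml IL1Ra, the IL-1 receptor antagonist, giving 9 libraries. No group of these tables received IL1Ra without IL-1β, and the model is a single expanded cell population in a reconstituted gel rather than tendon. Each batch was normalised separately, so values were tested only within a batch.

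The sum of normalised counts per library lay between 43393903 and 49197980 for lines 1 to 5 and between 24964149 and 34602014 for lines 6 to 8. Of 10 tenocyte markers fixed for the check, 9 were in the tables, and TNMD, a marker of mature tendon cells, did not exceed 3 normalised counts in any library. The sum of the list ran from 1013334 to 1791051 in first-batch controls and from 425003 to 805437 with IL-1β. Of the 8 markers tested there, 6 were DE (defined below) and lower, against 7.90% of all genes tested. DCN went the other way, with a first-batch median of 59314 in control and 117019 with IL-1β. The second-batch range of the sum was 237666 to 856667 in control, 304384 to 458712 with IL-1β and 132064 to 792611 with IL-1β + IL1Ra. In these bulk libraries fewer cells of a type and less RNA per cell cannot be told apart. A value of exactly 0 is given as "listed at 0", since EIF2S2, a translation initiation factor that every cell uses, was itself listed at 0 in 3 libraries of the first batch and 6 of the second. A gene is called DE where its log2-fold change is at least 1 in either direction and its adjusted p is under 0.05, by limma with Benjamini-Hochberg adjustment over all genes tested, and log2-fold changes are on the scale of log2(normalised count + 1), which understates the change of low genes.

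IL-1β raised NOS2 and GCH1 in the first batch, and both genes were higher with IL-1β than without it in each of the 8 lines. The other tested members did not pass the test in either batch. A minimum of 10 normalised counts in as many libraries as a group holds left 6 members to test in the first batch (NOS2, GCH1, ARG2, ODC1, ASS1 and ASL) and 7 in the second (IDO1 and TDO2 in, ASS1 out). In the first batch 2 of the 6 were DE, both higher, where 12.8% of all 14719 genes tested were DE and 4.91% were DE and higher. The median log2-fold change of the 6 was 0.86, against -0.003 over all genes tested. As the members were chosen with earlier results of these data known, these counts and medians describe them and do not test them as a set. For IL-1β against control in the second batch, limma called 0 of 7 members DE (2 at an unadjusted p under 0.05), where 0.341% of 16705 genes were DE and 11.4% had such a p, and their median was 0.40 against -0.008. A fit that took each tenocyte line as a block called 1 of the 7, GCH1, where it called 5.18% of all genes.

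**Figure D1:**
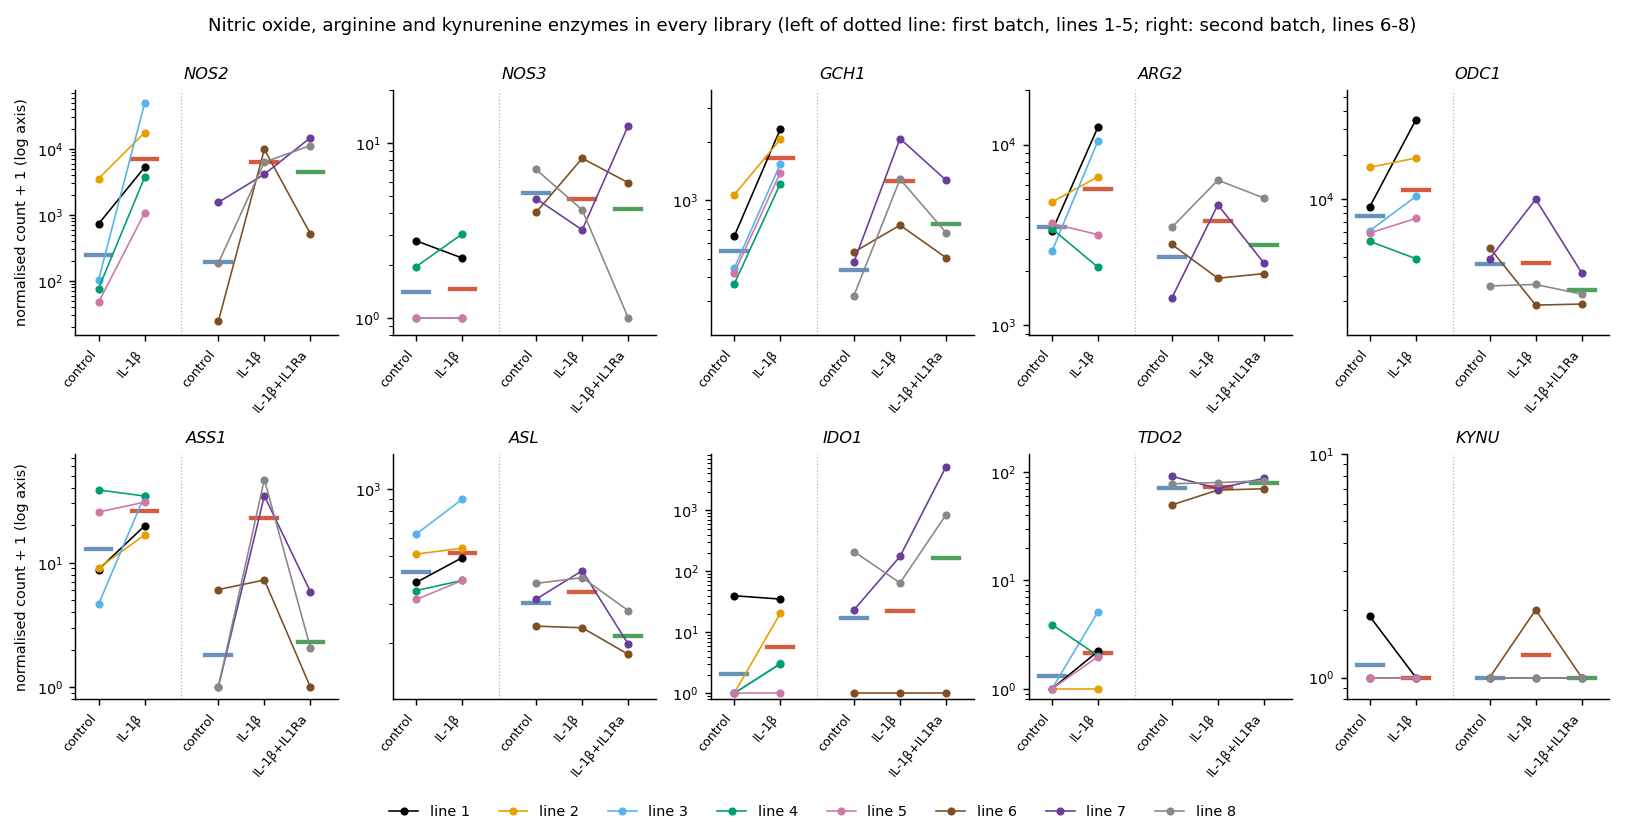
Normalised count + 1 of each of the 10 members in every library (log axis), with lines joining the libraries of one tenocyte line and thick bars at the mean of the log2 values of a group; the dotted line separates the batches. NOS2 and GCH1 are higher with IL-1β than in control in all 8 lines, while KYNU stays at or near its floor in every library.

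NOS2, the inducible nitric oxide synthase, had 729, 3534, 103, 75.4 and 46.2 normalised counts in control lines 1 to 5. With IL-1β the same lines had 5260, 17662, 49055, 3699 and 1073. Control line 2 was above the IL-1β library of line 5, so the groups overlapped, although each line was higher with IL-1β than without it. Mean NOS2 was 898 ± 1501 in control and 15350 ± 19892 with IL-1β (SD, n = 5), and the log2-fold change was 4.83 (SE 1.31, limma adjusted p = 0.0198). The rise differed in size between lines, and the log2 ratio of IL-1β to control ran from 2.32 in line 2 to 8.88 in line 3, with an SD of 2.61 over the 5 lines. Lines 1 and 2 had the highest control levels and the smallest ratios, a ratio that itself contains the control level. Without line 3 the log2-fold change was 3.82 with a limma adjusted p of 0.0825, and without line 4 it was 4.64 with 0.0664, over a range of 0.00532 to 0.0825 in all alternatives, so in the fit without a block the NOS2 call rested on lines 3 and 4. With the line as a block NOS2 was DE whichever line was left out (limma adjusted p = 0.00532 to 0.0251).

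Lines 6 to 8 of the second batch had NOS2 at 23.3, 1549 and 184 normalised counts in control, and at 9845, 4131 and 6317 with IL-1β. Every IL-1β library was above every control library, which held for 8.82% of all genes tested in that direction. The means were 585 ± 839 and 6764 ± 2883 (SD, n = 3). The log2-fold change was 5.06 (SE 1.64), close in size to that of the first batch, but its limma adjusted p was 0.28 and NOS2 did not pass the test there. With the line as a block the SE was 1.25 and the limma adjusted p was 0.0606, so NOS2 did not pass in that fit either. Its log2 ratios were 8.66 in line 6, 1.41 in line 7 and 5.10 in line 8. Again the line with the highest control level, line 7, had the smallest ratio.

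GCH1, the entry enzyme of tetrahydrobiopterin synthesis, rose by a smaller and more even amount. Control lines 1 to 5 had 651, 1068, 444, 368 and 419 normalised counts, and the same lines with IL-1β had 2334, 2067, 1542, 1220 and 1391. The groups did not overlap, which held for 9.34% of all genes in that direction. Means were 590.0 ± 288 and 1711 ± 471 (SD, n = 5), with a log2-fold change of 1.61 (SE 0.29, limma adjusted p = 0.00301). The log2 ratio was 0.95 in line 2 and 1.73 to 1.84 in the other 4 lines, an SD of 0.37 against the 2.61 of NOS2. Leaving out any 1 line kept GCH1 DE, with log2-fold changes of 1.55 to 1.77.

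GCH1 in the second batch stood at 539, 479.7 and 321 normalised counts in control lines 6 to 8 and at 744, 2090 and 1287 with IL-1β. Again the groups did not overlap, which held for 8.82% of all genes in that direction. Line 6 moved least, with a log2 ratio of 0.46 against 2.12 in line 7 and 2.00 in line 8. The log2-fold change was 1.53 (SE 0.45), near that of the first batch. It was not DE without a block (limma adjusted p = 0.234) and DE with the line as a block (SE 0.33, limma adjusted p = 0.0422), over a range of 0.00384 to 1 in all alternatives. With the block and line 6 left out its log2-fold change was 2.06 and it was DE. Without line 7 it was 1.23 (limma adjusted p = 0.231) and without line 8 it was 1.29 (limma adjusted p = 0.367), in fits that called at most 8 of all genes higher.

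Because NOS2 is also known as an enzyme of activated macrophages, leukocyte markers are given beside it. PTPRC, the pan-leukocyte marker, was listed at 0 in all 5 first-batch controls and reached at most 3.64 normalised counts with IL-1β and at most 6.46 in the second batch. CSF1R, AIF1, TYROBP, CD3E and CD79A were at or under 3 in every library. CD14, a monocyte and macrophage marker, was listed at 0 in some libraries of every group and reached 1947 in first-batch controls and 2811 with IL-1β, with a median of 0 in both. Its second-batch medians were 0 in control, 1158 with IL-1β and 645 with IL-1β + IL1Ra, with highest values of 1195, 1262 and 1482. The sum of the 12 leukocyte markers ran from 60.2 to 2079 in first-batch controls and from 313 to 3714 with IL-1β. Over the second batch it ran from 231 to 1272 in control, 676 to 3056 with IL-1β and 735 to 2059 with IL-1β + IL1Ra. CD68, a lysosomal protein, was the only 1 of them that passed the filter in the first batch, and it was DE, with 56.4 to 173 normalised counts in control and 296 to 1359 with IL-1β. The part of CD14 and CD68 in the level of NOS2 was not tested.

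NOS3, the endothelial synthase, was too low to test in either batch. In the first batch it had 1.76 and 0.97 normalised counts in control lines 1 and 4, 1.2 and 2.03 in the same lines with IL-1β, and was listed at 0 in the other 6 libraries. Control lines 6 to 8 had 3.02, 3.81 and 6.07, the IL-1β libraries 7.19, 2.19 and 3.15, and the IL-1β + IL1Ra libraries 4.94, 11.6 and 0. The groups overlapped throughout. The sum of 8 endothelial markers ran from 22.4 to 92.0 over the first batch and from 55.3 to 239.9 over the second. Of these, CDH5 was at most 3.49 in any library, PECAM1 reached 73.2 and VWF 44.6. EMCN was at most 1.08 in the first batch and between 20.7 and 191 in the second. Other markers did not share a direction between batches, with control medians of 21.7 and 13.3 for VWF and 0.933 and 3.01 for TEK. In the second batch NOS3 was listed at 0 in only 1 of 9 libraries. Fewer genes of any kind were listed at 0 there, 8551 to 9694 per library against 10924 to 11926 in the first batch. The part of endothelial cells in NOS3 was not tested.

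ARG2, the mitochondrial arginase, did not pass the test in either batch. Its normalised counts were 3323, 4810, 2571, 3419 and 3660 in control lines 1 to 5, and 12555, 6644, 10529, 2092 and 3173 with IL-1β. Lines 1, 2 and 3 were higher with IL-1β and lines 4 and 5 lower, so the lines did not share a direction, and the log2-fold change was 0.70 (SE 0.45, limma adjusted p = 0.279). Second-batch ARG2 was at 2803, 1414 and 3481 in control lines 6 to 8 against 1821, 4646 and 6355 with IL-1β. Here line 6 was lower and lines 7 and 8 were higher, with a log2-fold change of 0.65 (SE 0.57, limma adjusted p = 0.783).

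ODC1, the first enzyme of polyamine synthesis, showed a like split between lines. Control lines 1 to 5 had 8903, 16533, 6101, 5150 and 5875 normalised counts, and with IL-1β they had 34948, 19114, 10447, 3921 and 7392. Only line 4 was lower with IL-1β in this batch, and the log2-fold change was 0.58 (SE 0.55, limma adjusted p = 0.467). Control lines 6 to 8 had 4656, 3909 and 2554, against 1888, 9989 and 2613 with IL-1β. Line 6 was lower, line 7 higher and line 8 near its control, leaving a log2-fold change of 0.03 (SE 0.57, limma adjusted p = 0.994), which was -0.16 when libraries were scaled to equal sums. That scaling moved the median of all genes tested in this comparison from -0.008 to -0.189, so ODC1 stayed near the middle of all genes under both scalings.

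ASS1, which joins citrulline and aspartate, was a low gene. In the first batch it had 7.81, 8.07, 3.63, 37.5 and 24.6 normalised counts in control lines 1 to 5 and 18.8, 15.7, 33.7, 33.4 and 29.7 with IL-1β. It was higher in 4 of 5 lines, and the log2-fold change of 1.01 (SE 0.57) had a limma adjusted p of 0.214. In the second batch ASS1 was below the filter: control line 6 had 5.09 and lines 7 and 8 were listed at 0, the IL-1β libraries had 6.27, 33.6 and 45.7, and the IL-1β + IL1Ra libraries had 0, 4.85 and 1.07. Every IL-1β library was above every control and every IL-1β + IL1Ra library. Among the genes that passed the filter, which leaves ASS1 out, these patterns held for 8.82% and 3.35%. Fitted without the filter, the 2 differences had limma adjusted p values of 0.254 (IL-1β against control) and 1 (IL-1β + IL1Ra against IL-1β), so neither passed the test.

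ASL, which completes the return of citrulline to arginine, differed little between conditions. It had 377, 507, 626, 346 and 315 normalised counts in control lines 1 to 5 and 489, 540.1, 903, 385 and 385 with IL-1β. All 5 lines were higher with IL-1β, by log2 ratios of only 0.09 to 0.53, and the groups overlapped. The log2-fold change was 0.29, with an SE of 0.27 and a limma adjusted p of 0.466. Second-batch ASL was at 238, 316 and 373 in control lines 6 to 8 and 234, 426 and 396 with IL-1β, and its log2-fold change of 0.16 (SE 0.32, limma adjusted p = 0.924) became -0.02 when libraries were scaled to equal sums. The median of all genes tested moved with that scaling from -0.008 to -0.189.

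IDO1, which opens the kynurenine pathway in cells stimulated by interferon, differed widely between lines. In the first batch it was too low to test: control line 1 had 38.7 normalised counts and the other 4 controls were listed at 0, while the IL-1β libraries of lines 1 to 5 had 34.0, 19.4, 2.09, 2.02 and 0. Line 6 of the second batch was listed at 0 in all 3 conditions. Line 7 had 22.3 in control, 174 with IL-1β and 5188 with IL-1β + IL1Ra, and line 8 had 209, 63.4 and 845. The highest IDO1 values of the 19 libraries were thus those of lines 7 and 8 with IL-1β + IL1Ra. For IL-1β against control the log2-fold change was 0.40 (SE 3.43, limma adjusted p = 0.984), with line 7 higher and line 8 lower.

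TDO2, the other enzyme that opens the tryptophan ring, showed no detectable change with IL-1β. Across the second batch it had 48.9, 90.9 and 77.2 normalised counts in control lines 6 to 8, 67.5, 69.7 and 79.4 with IL-1β, and 69.3, 87.0 and 82.2 with IL-1β + IL1Ra. The 3 groups overlapped, and the log2-fold change of 0.04 for IL-1β against control had an SE of 0.32 (limma adjusted p = 0.984). In the first batch TDO2 was below the filter, at 0 to 2.91 in control and 0 to 4.16 with IL-1β, although that batch had the larger sums of counts. Batch and line cannot be told apart here. KYNU, which cleaves kynurenine, had 0.877 normalised counts in control line 1 and 1.01 in line 6 with IL-1β, and was listed at 0 in the other 17 libraries.

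**Figure D2:**
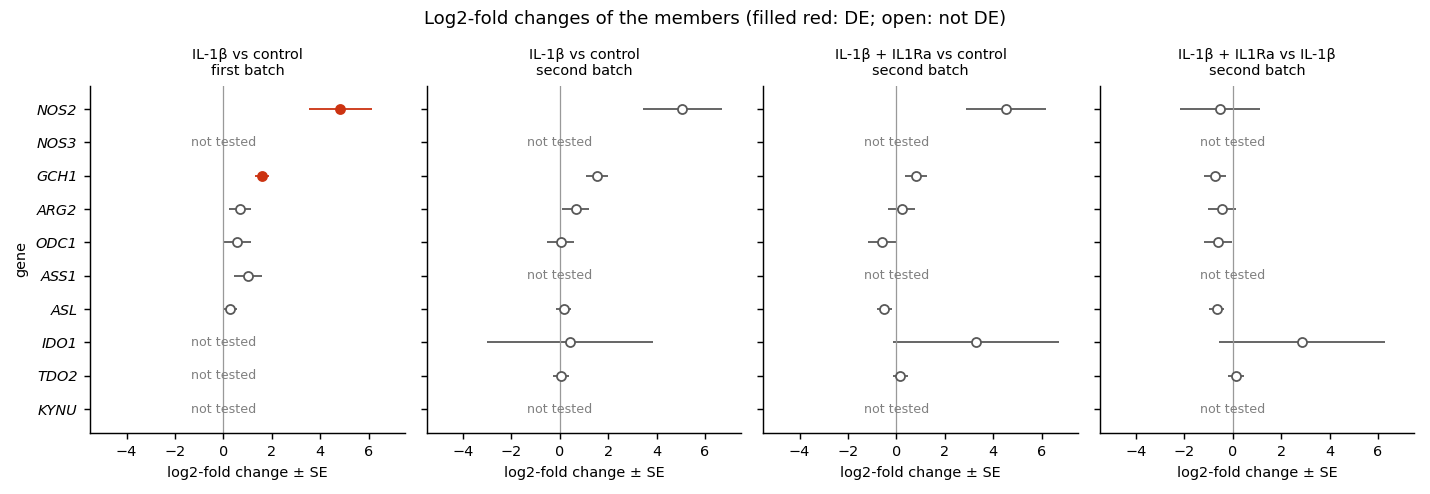
Log2-fold change ± SE of each member in the 4 comparisons, fitted without a block; filled red points are DE, open points are not, and members below the filter are marked as not tested. NOS2 (4.83) and GCH1 (1.61) in the first batch are the filled points, and the widest bars are those of IDO1.

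The second batch also asked what IL-1β did when its receptor antagonist was present. IL-1β + IL1Ra was set against control and against IL-1β alone; these comparisons share libraries, so their values stand side by side. Against control, limma called 0 of 7 members DE (1 at an unadjusted p under 0.05, and 0 with the line as a block). Over all genes 0.0120% were DE, 5.67% had such a p and 0.251% were DE with the block, and the median log2-fold change of the members was 0.22 against 0.01 over all genes. Against IL-1β alone, limma also called 0 of 7 DE (0 at an unadjusted p under 0.05, and 0 with the block). Over all genes the shares were 0%, 2.78% and 0.00599%, and the median was -0.53 against 0.009.

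NOS2 with IL-1β + IL1Ra stood at 516, 14791 and 11241 normalised counts in lines 6 to 8, a mean of 8849 ± 7432 (SD, n = 3). Line 6 was far below its 9845 with IL-1β alone, whereas lines 7 and 8 were above their 4131 and 6317. The log2 ratio of IL-1β + IL1Ra to IL-1β was -4.25 in line 6, 1.84 in line 7 and 0.83 in line 8, so the lines did not share a direction. Over the 3 lines the log2-fold change was -0.53 (SE 1.64, limma unadjusted p = 0.756), and it was 1.34 without line 6. Compared with control, NOS2 was higher in 3 of 3 lines with IL1Ra present, by log2 ratios of 4.41, 3.25 and 5.93, and the log2-fold change was 4.53 (SE 1.64) with a limma adjusted p of 0.822. With the line as a block the limma adjusted p was 0.201 (limma unadjusted p = 0.00767). It was 0.0413 with the block and without line 6, over a range of 0.0413 to 1 in all alternatives.

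GCH1 was lower with IL1Ra than with IL-1β alone in all 3 lines. With IL-1β + IL1Ra it had 504, 1271 and 680.3 normalised counts in lines 6 to 8. In lines 7 and 8 this lay between the control and IL-1β values of the line, and in line 6 just below its control. Relative to IL-1β alone the log2 ratios were -0.56, -0.72 and -0.92. The log2-fold change of -0.73 (SE 0.45) had a limma unadjusted p of 0.144, so the lower level was not past the test. Relative to control it was 0.80 (SE 0.45, limma unadjusted p = 0.116). With the line as a block the limma unadjusted p was 0.0607 against IL-1β and 0.0457 against control. The limma adjusted p values of that fit were 0.616 and 0.363, so neither passed.

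ASL was lower with IL-1β + IL1Ra than in either other condition in 3 of 3 lines. It had 177, 197 and 280.3 normalised counts in lines 6 to 8, but the groups overlapped. The log2-fold change was -0.50 against control and -0.67 against IL-1β (SE 0.32 in both), with limma unadjusted p values of 0.15 and 0.0679. With the line as a block these were 0.0443 and 0.014 (limma adjusted p = 0.359 and 0.434), so neither difference passed in either fit. ODC1 with IL-1β + IL1Ra had 1919, 3135 and 2244, lower than control in each of the 3 lines by a fitted log2-fold change of -0.59 (SE 0.57). ARG2 had 1932, 2208 and 5062, which gave log2-fold changes of 0.22 against control and -0.44 against IL-1β (SE 0.57 in both), with no shared direction among lines.

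Among the 7 members tested there, IDO1 had the level with IL-1β + IL1Ra that was farthest from that with IL-1β alone. Line 7 had 174 with IL-1β and 5188 with IL1Ra added, and line 8 had 63.4 and 845, log2 ratios of 4.89 and 3.71, while line 6 was listed at 0 in both. The log2-fold change was 2.87 (SE 3.43), with a limma unadjusted p of 0.427, so the difference was not past the test. With the line as a block the limma unadjusted p was 0.0674 (adjusted p = 0.63). Against control the IDO1 log2-fold change was 3.27, with a limma unadjusted p of 0.368 without a block and 0.0429 with it (adjusted p = 0.355 with it). TDO2 was 0.13 (SE 0.32) away from IL-1β alone on the log2 scale.

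**Figure D3:**
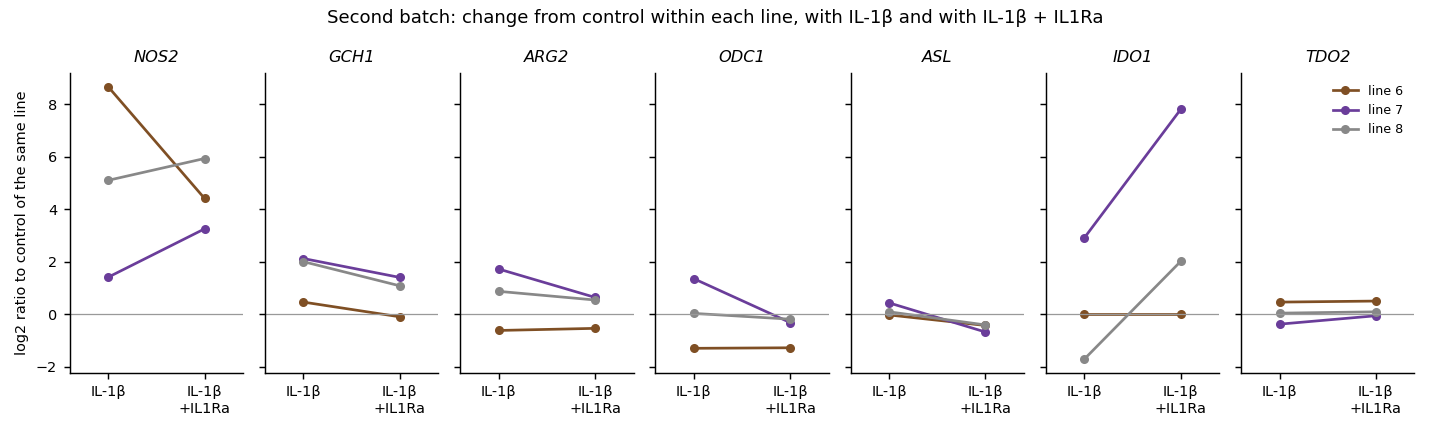
Log2 ratio to the control of the same line, for IL-1β and for IL-1β + IL1Ra, in lines 6 to 8 of the second batch for the 7 members tested there. For NOS2 the ratio falls from 8.66 to 4.41 in line 6 and rises in lines 7 and 8, for GCH1 it falls in all 3 lines, and for IDO1 it rises in lines 7 and 8.

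The other genes of these pathways were counted on 3 lists of 59 genes, also chosen with earlier results of these data known. Of these, 58 were in the tables and 49 were tested in both batches. The 9 not tested included NOS1, ARG1, CPS1, IDO2 and KMO, and the highest value of any of them was 38.8 normalised counts, for KMO. With IL-1β in the first batch 4 of the 49 were DE and higher and 6 DE and lower, against 4.91% and 7.90% of all genes tested, with a median log2-fold change of -0.18. Of the 16 nitric oxide and tetrahydrobiopterin genes tested, 0 were DE and higher and 3 were DE and lower. Of the 22 arginine, urea cycle and polyamine genes 3 were higher and 2 lower, and of the 11 kynurenine and tryptophan genes 1 was higher and 1 lower. For the same comparison in the second batch, limma called 0 of the 49 DE (7 at an unadjusted p under 0.05). Over all genes 0.341% were DE and 11.4% had such a p. With the line as a block limma called 5 of the 49, 2 of them higher and 3 lower, where 2.59% of all genes were DE in each direction.

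**Figure D4:**
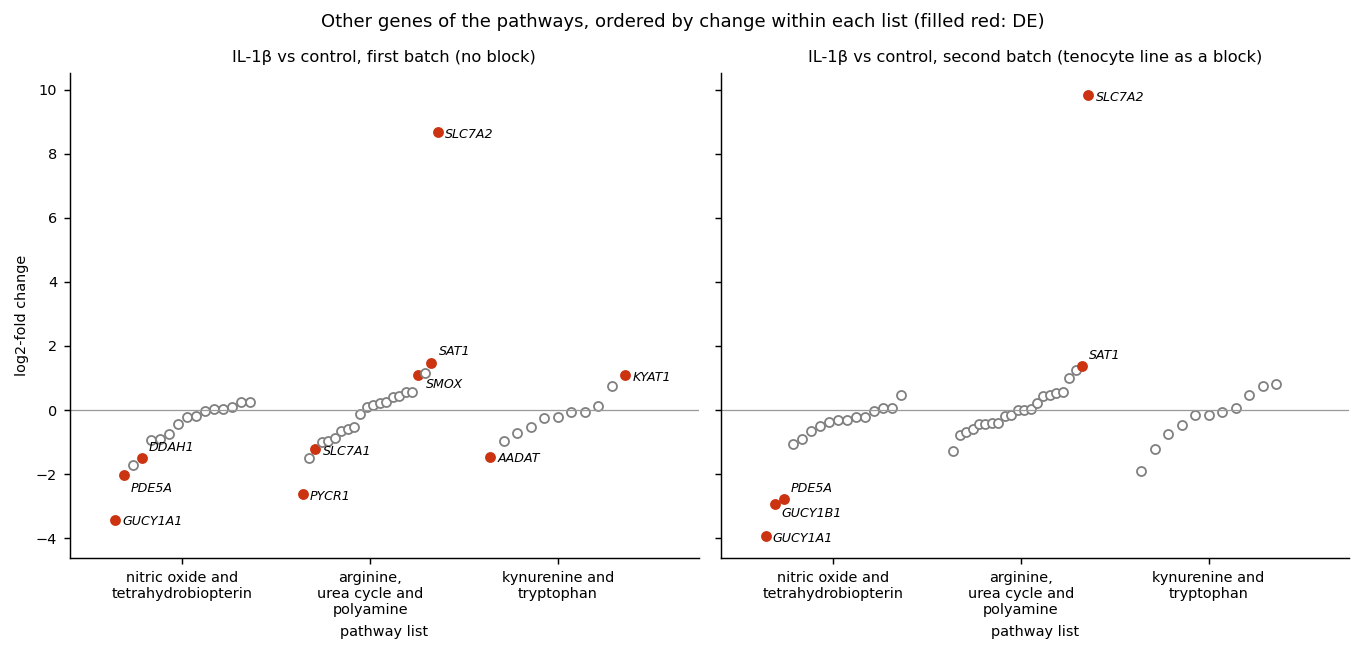
Log2-fold change of each of the 49 other pathway genes tested, ordered within 3 lists, for IL-1β against control in the first batch (left, no block) and the second batch (right, line as a block); filled red points are DE. SLC7A2 stands highest in both panels (8.66 and 9.82) and GUCY1A1 lowest (-3.42 and -3.94).

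SLC7A2, a transporter that brings arginine into the cell, rose farthest of the pathway genes. It had 81.9, 156, 42.2, 174 and 91.3 normalised counts in control lines 1 to 5 and 24774, 36747, 60337, 51110 and 34566 with IL-1β. The groups were far apart, with a log2-fold change of 8.66 (SE 0.38, limma adjusted p = 7.75e-07). Of all genes, 9.34% were higher with IL-1β without overlap in that batch. Its second-batch values were 217, 5.7 and 1.76 in control lines 6 to 8, 67866, 6725 and 6546 with IL-1β, and 7374, 4687 and 1417 with IL-1β + IL1Ra. Every library with IL-1β was above every control, also with IL1Ra present (8.82% and 5.79% of all genes). For IL-1β against control the log2-fold change was 9.82, with a limma adjusted p of 0.057 without a block and 0.00294 with the line as a block, over a range of 2.46e-04 to 0.752 in all alternatives. For IL-1β + IL1Ra against control it was 7.84, with limma adjusted p values of 0.369 and 0.0267, over a range of 7.01e-04 to 1, and SLC7A2 was the 1 pathway gene DE there with the block, where 0.251% of all genes were. SLC7A2 was lower with IL1Ra than with IL-1β alone in each of the 3 lines, by a fitted log2-fold change of -1.98 (SE 1.63, limma unadjusted p = 0.257), which did not pass the test.

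Its relative SLC7A1, the widely expressed arginine transporter, went the other way in the first batch. It had 3589 to 8153 normalised counts in control and 1483 to 3116 with IL-1β, and its log2-fold change was -1.22 (SE 0.25, limma adjusted p = 0.0058). Its second-batch log2-fold change was -0.20 (SE 0.71), with lines in both directions. PYCR1, which makes proline, ranged between 4213 and 7738 in first-batch controls and between 572 and 1385 with IL-1β, with a log2-fold change of -2.63 (SE 0.26, limma adjusted p = 1.19e-04). SAT1 and SMOX, which acetylate and oxidise polyamines, rose there by 1.48 (SE 0.34, limma adjusted p = 0.00977) and 1.09 (SE 0.37, limma adjusted p = 0.0498). The SMOX groups overlapped, and leaving out line 1, 3, 4 or 5 took its limma adjusted p to between 0.0805 and 0.128. SAT1 was also DE in the second batch with the line as a block, with a log2-fold change of 1.38 (SE 0.20, limma adjusted p = 0.0137, range 0.0137 to 1 in all alternatives).

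On the nitric oxide list the DE genes of the first batch were GUCY1A1, PDE5A and DDAH1, all lower. GUCY1A1, a subunit of soluble guanylate cyclase, the nitric oxide receptor, had 938, 590.1, 331, 670.4 and 612 normalised counts in control lines 1 to 5 and 97.8, 103, 7.3, 94.8 and 66.0 with IL-1β. The groups did not overlap, as for 10.2% of all genes in that direction, and the log2-fold change was -3.42 (SE 0.65, limma adjusted p = 0.00378). Second-batch GUCY1A1 was at 51.3, 1076 and 206 in control lines 6 to 8, 0.995, 52.0 and 29.6 with IL-1β, and 21.1, 709.8 and 137 with IL-1β + IL1Ra. Each line was lowest with IL-1β and intermediate with IL1Ra. The log2-fold change for IL-1β against control was -3.94, with a limma adjusted p of 0.432 without a block and 0.00625 with it, over a range of 0.00625 to 1, and for IL-1β + IL1Ra against IL-1β it was 3.13 (SE 0.42 with the block, limma adjusted p = 0.14, range 0.0585 to 1), higher in 3 of 3 lines but not past the test.

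GUCY1B1, the partner subunit of that receptor, was lower with IL-1β in each of the 8 lines. Its log2-fold change was -1.70 in the first batch, with a limma adjusted p of 0.0968 without a block and 0.00138 with it (range 0.00138 to 0.195), and -2.94 in the second, with limma adjusted p values of 0.653 and 0.00569 (range 0.0037 to 1). PDE5A, which breaks down the cyclic GMP that the receptor makes, ranged between 1095 and 1675 normalised counts in first-batch controls and between 188 and 430 with IL-1β, and its log2-fold change was -2.04 (SE 0.23, limma adjusted p = 2.36e-04). Second-batch PDE5A was at 734, 1254 and 1883 in control lines 6 to 8, 259.6, 99.2 and 202 with IL-1β, and 591, 407 and 331 with IL-1β + IL1Ra. The 3 groups did not overlap, with control highest and IL-1β lowest. Over all genes 7.61% were lower with IL-1β than in control without overlap, and 3.12% were higher with IL-1β + IL1Ra than with IL-1β. The share lower with IL-1β + IL1Ra than in control is not given here. The log2-fold change for IL-1β against control was -2.79, with a limma adjusted p of 0.057 without a block and 0.019 with it (range 0.00442 to 0.773), and for IL-1β + IL1Ra against IL-1β it was 1.31 (SE 0.46, limma unadjusted p = 0.0202), which did not pass the test. DDAH1, which clears an endogenous inhibitor of nitric oxide synthases, fell by 1.49 on the log2 scale in the first batch (SE 0.23, limma adjusted p = 0.00115). In the second batch it was lower in 3 of 3 lines, but the groups overlapped and the log2-fold change of -1.06 did not pass (SE 0.79, limma adjusted p = 0.716).

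The sum of 6 smooth muscle and pericyte markers, cells in which this receptor is well known, was also lower with IL-1β in the first batch. It ran from 22533 to 55128 in first-batch controls and from 6849 to 12303 with IL-1β. All 6 were above 3 normalised counts in at least 1 library of each group. Of the 6, 4 were DE and lower, against 7.90% of all genes tested. The second-batch ranges overlapped, at 5563 to 15982 in control, 2810 to 7886 with IL-1β and 2500 to 11296 with IL-1β + IL1Ra. The part of these markers in the lower levels of GUCY1A1, GUCY1B1 and PDE5A was not tested.

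**Figure D5:**
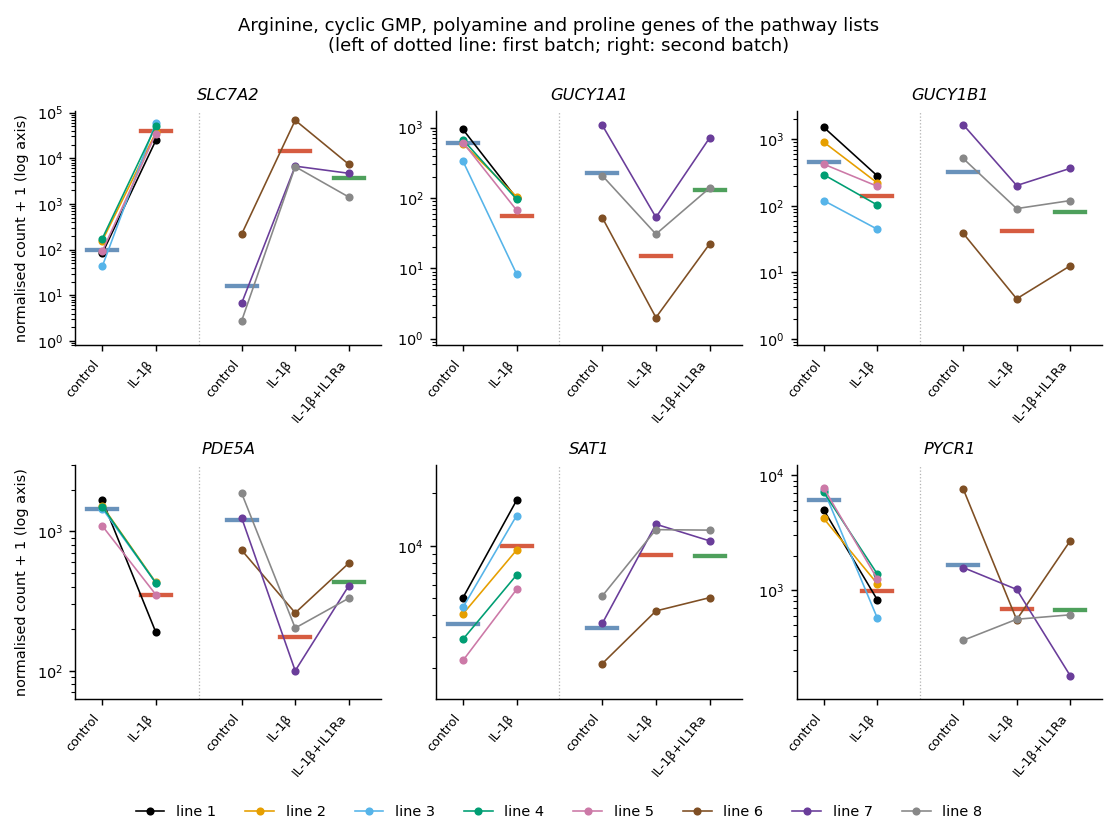
Normalised count + 1 in every library (log axis) of pathway genes that were DE with IL-1β, with lines joining the libraries of one tenocyte line and thick bars at the mean of the log2 values of a group. SLC7A2 is at most 217 in all controls and at least 1417 in every library with IL-1β, and GUCY1A1 is lowest with IL-1β in each line.

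On the kynurenine list, KYAT1 and AADAT, both aminotransferases that turn kynurenine into kynurenic acid, moved in opposite directions in the first batch. KYAT1 had 553 to 705 normalised counts in control and 973 to 1808 with IL-1β, and its log2-fold change was 1.08 (SE 0.16, limma adjusted p = 0.00111). AADAT had 69.6 to 227 in control and 27.8 to 61.2 with IL-1β, and its log2-fold change was -1.46 (SE 0.35, limma adjusted p = 0.0114). Neither pair of groups overlapped, which held for 9.34% of all genes in the higher direction and 10.2% in the lower. In the second batch the changes were 0.75 (SE 0.34) for KYAT1 and -0.76 (SE 0.43) for AADAT, each in the same direction in 3 of 3 lines, and not past the test (limma adjusted p = 0.447 and 0.57).

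For the 5 members tested in both batches, the most similar genes were ranked by Pearson correlation of log2(normalised count + 1), centred within each tenocyte line, over the 19 libraries and among 14478 genes tested in both batches. These points share libraries and conditions, and the values are a description. The nearest to NOS2 were SLC6A12, STAT4 and HTR7 (r = 0.98 for each), and the nearest to GCH1 were IL1A and MRPS33 (r = 0.99) and YIPF4 (r = 0.98). For ARG2 they were KRT10B (r = 0.95), the amino acid transporter subunit SLC3A2 (r = 0.93) and PHLDA1 (r = 0.92). ODC1 was nearest to GALT (r = 0.92), PIDD1 and MRPL58 (r = 0.91), and ASL to ELAVL1 and ARMC6 (r = 0.93) and IFT46 (r = 0.92).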

How the data were processed

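The authors sequenced stranded mRNA libraries, assigned reads to the EquCab3.0 horse transcriptome with Salmon, and summed them to genes. The deposited signal is DESeq2-normalised counts (DESeq2 1.36, R 4.2.1 per the labels), with 1 table per batch, and 0 columns were left unmapped. Whole reads could not be recovered, so no count model was fitted. Here log2(normalised count + 1) was fitted in each batch with limma 3.58.1 (R 4.3.3; lmFit, eBayes with trend) and Benjamini-Hochberg adjustment over genes that reached 10 normalised counts in 5 or more (first batch) or 3 or more (second) libraries; the script was tested on simulated data. The second batch was fitted with all 3 conditions. Libraries of a line share a donor, so lines pair libraries: deviations from condition means correlated at 0.35 to 0.58 within lines (5 pairs) and 0.54 to 0.79 (9 pairs), and at -0.36 to 0.29 and -0.62 to 0.25 between lines. The main fit has no block, as the methods state none; the line as a block is an alternative. The members and lists were chosen with earlier results of these data known. Named are all members, pathway genes DE in the first batch or, with the block, in the second, and the 3 genes most like each of the 5 members tested in both batches. No coordinates or sequences are given, as no genome of the authors' build was used here. NOS1AP was not used.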

Additional observations from a re-analysis of the deposited data

Results flagged for a closer look

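IDO1 in control line 1 of the first batch stood at 38.7 normalised counts while the other 4 controls of that batch were listed at 0, a sample far from the rest of its group. The IL-1β library of the same line was at 34.0. Of 15 groups of 4 or more samples checked, this was the only 1 flagged. The check set the gap to the next value against the range of the group. With the other 4 values at 0 that ratio is 1.0 whatever the remaining value, so the nominal rate of 1 in 20 groups does not apply. First-batch controls of TDO2 and KYNU had the same shape, with 2.91 in line 4 and 0.877 in line 1 as the only values above 0, and were not flagged.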

How the results depend on the processing

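Of the members, GCH1 was DE in the first batch under all 17 alternatives (log2-fold change 1.55 to 1.77), and NOS2 under all but the fits without a block that left out line 3 or line 4, which had 1 member DE in place of 2 (range 1 to 2 when a line was left out). With the block NOS2 was DE whichever line was left out, with limma adjusted p values of 0.00532 to 0.0251. For the second batch the tenocyte line as a block gave 1 member DE in place of 0 for IL-1β against control, and 0 to 2 when a line was also left out, with ARG2 and GCH1 DE without line 6. Of all 16705 genes the block called 588 higher and 648 lower without line 6, against 432 and 433 with every line. For IL-1β + IL1Ra against control the block gave 0 members DE, and 0 to 2 when a line was also left out, with NOS2 and GCH1 DE without line 6. Calls over all genes rose there too, from 35 higher and 7 lower with every line to 249 and 165 without line 6. These alternatives with the block and a line left out were chosen after seeing the data. The block changed no other call of a member.

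Of the other pathway genes, 20 in place of 10 had an adjusted p under 0.05 in the first batch whatever their fold change. Dropping the fold-change limit can only add calls, and the share of all genes under that rule was not counted. Whether the rise is particular to these pathways therefore cannot be told. In the second batch the count of these pathway genes DE for IL-1β against control was 0, and 1 with a pseudocount of 4, 5 with the replicate block, 0 to 2 when a line was left out and 0 to 8 with both. The highest counts were without line 6, and all 5 calls of the block were lost without line 7 and without line 8. All 16705 genes moved in the same way. The block called 432 of them higher and 433 lower with every line, and 588 and 648 without line 6. Without line 7 it called 0 and 0, and without line 8 it called 8 and 3. For IL-1β + IL1Ra against control the count of pathway genes was 1 with the block, 0 to 1 when a line was left out and 0 to 4 with both. It was again highest without line 6 and 0 without line 7 or line 8. Over all genes the block called 35 higher and 7 lower there with every line, 249 and 165 without line 6, and 0 without line 7 or line 8. The cause was not tested. Over all genes, scaling to equal sums moved the share of higher calls in the second batch from 78.9% to 61.4%.

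Directions turned in values that were not called. With libraries scaled to equal sums, IL-1β against control in the second batch gave -0.02 for ASL, -0.14 for TDO2 and -0.16 for ODC1 on the log2 scale. The same scaling moved the median of all genes tested from -0.008 to -0.189, so each of these genes stayed above that median. Leaving out a line gave -0.17 to 0.25 for TDO2 (lowest without line 6), -0.85 to 1.45 for IDO1 and -0.63 to 0.69 for ODC1 (both lowest without line 7), with or without the block. NOS2 in IL-1β + IL1Ra against IL-1β ran from -1.71 to 1.34, the highest without line 6, with or without the block. Precision in the second batch rests on 3 lines and on lower sums of counts, and the part of either in its fewer calls was not tested.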
